A study of Mus musculus with 18 samples.

Results

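The genes described here are 35 genes of sugar breakdown and of the response to low oxygen, chosen by name from the 55401 gene IDs of the count tables. They comprise 21 glycolytic enzymes and glucose or lactate transporters and 14 genes of the hypoxia response, and all 35 had enough counts to be tested. The RNA, selected by its poly(A) tail, came from the mouse stem cell line RHKI, a derivative of the embryonic line E14Tg2a, and from gastruloids made from them, which are stem cell aggregates that form early embryonic tissues in culture. The stem cells were kept in a medium with LIF and 2 kinase inhibitors, and the study's title concerns R-loops, the histone variant H2A.Z and lineage choice. Every library, controls included, carries the HA-Rnaseh1 knock-in, whose product RNase H1 cleaves the RNA of RNA-DNA hybrids. In the Dox groups the cells received doxycycline (Dox) at 500 ng/ml for 48 h and then entered differentiation, and whether Dox stayed in the medium is not stated. Dox-treated and untreated cells were each sampled after 0 h (day 0), 72 h (day 3) and 120 h (day 5) of differentiation, with 3 libraries in each of the 6 groups. All groups come from this 1 line, and the labels do not say whether replicates are separate cultures. No group holds Dox-treated cells without the knock-in. An effect of Dox itself and an effect of the induced Rnaseh1 therefore cannot be told apart.

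Glycolysis converts glucose to pyruvate in the cytosol, and lactate dehydrogenase then interconverts pyruvate and lactate, which leaves the cell through monocarboxylate transporters. Pyruvate dehydrogenase kinases block the entry of pyruvate into the mitochondrial citric acid cycle. When oxygen is scarce, the prolyl hydroxylases of the Egln family no longer mark the alpha subunit of the hypoxia-inducible factor HIF for destruction, and HIF raises the transcription of many glycolytic genes and of genes such as Vegfa and Bnip3. In the early embryo, glycolytic activity is graded along the body axis and differs between pluripotent states.

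The libraries held 25748897 to 38128366 counts. Rnaseh1 had 140 to 183 TPM in Dox and 26.7 to 29.7 TPM in control libraries at day 0, 78.0 to 80.1 TPM in Dox and 24.8 to 26.8 TPM in control libraries at day 3, and 67.0 to 75.0 TPM in Dox and 22.8 to 24.0 TPM in control libraries at day 5. TPM is a level corrected for gene length and depth. The 6 naive pluripotency markers summed to 1073 to 1186 TPM in Dox and 1087 to 1193 TPM in control libraries at day 0, and to 3.45 to 18 TPM in all later libraries. The day 0 Dox replicate 2 library stood apart in that the rRNA gene CT010467.1 took 4.76% of its counts, against 0.144 to 0.483% in the other 17 libraries. Replicates also differed more from each other at day 0 than later, while the fit pools 1 spread per gene over all groups.

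The stretch upstream of each start site is shown for 4 genes that fell with Dox at day 5 and for Ddit4, which rose with Dox at day 0. The sequences come from RefSeq (GRCm38.p6), are the 250 bases before the start site, and are written 5′ to 3′ on the gene's strand. Capitals mark ACGTG or GCGTG, the core letters of the hypoxia response element, on either strand (read on the other strand as CACGT or CACGC), and a CACGTG counts once on each strand.
Slc2a1, chr4:119108495-119108744, plus strand: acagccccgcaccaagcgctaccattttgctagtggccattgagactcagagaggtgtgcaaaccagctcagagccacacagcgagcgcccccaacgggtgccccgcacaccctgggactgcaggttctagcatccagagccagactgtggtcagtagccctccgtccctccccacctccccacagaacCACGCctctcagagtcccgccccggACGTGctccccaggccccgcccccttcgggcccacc
Slc16a1, chr3:104638414-104638663, plus strand: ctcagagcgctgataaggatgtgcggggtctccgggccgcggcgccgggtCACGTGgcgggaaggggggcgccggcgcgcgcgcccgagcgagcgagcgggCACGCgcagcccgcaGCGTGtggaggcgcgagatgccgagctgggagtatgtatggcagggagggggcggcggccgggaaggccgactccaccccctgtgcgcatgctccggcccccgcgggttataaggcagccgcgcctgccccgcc
Pdk3, chrX:93832151-93832400, minus strand: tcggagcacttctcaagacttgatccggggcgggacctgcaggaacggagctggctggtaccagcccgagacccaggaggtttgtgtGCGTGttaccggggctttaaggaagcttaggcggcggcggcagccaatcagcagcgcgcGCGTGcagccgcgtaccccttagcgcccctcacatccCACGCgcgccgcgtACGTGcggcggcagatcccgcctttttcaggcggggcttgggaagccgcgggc
Ldha, chr7:46845554-46845803, plus strand: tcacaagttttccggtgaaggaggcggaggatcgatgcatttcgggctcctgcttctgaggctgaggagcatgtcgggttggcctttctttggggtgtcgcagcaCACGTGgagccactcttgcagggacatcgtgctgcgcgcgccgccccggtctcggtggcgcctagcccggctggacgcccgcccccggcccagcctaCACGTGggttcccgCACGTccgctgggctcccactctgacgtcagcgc
Ddit4, chr10:59951771-59952020, minus strand: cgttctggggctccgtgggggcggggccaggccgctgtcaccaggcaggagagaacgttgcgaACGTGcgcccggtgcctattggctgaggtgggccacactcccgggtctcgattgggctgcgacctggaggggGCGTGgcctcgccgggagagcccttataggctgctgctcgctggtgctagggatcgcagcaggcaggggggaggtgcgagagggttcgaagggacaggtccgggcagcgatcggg
In the GENCODE annotation of GRCm38, Slc2a1 (ENSMUSG00000028645) spans chr4:119108711-119137983 on the plus strand, Slc16a1 (ENSMUSG00000032902) chr3:104638668-104658462 on the plus strand, and Pdk3 (ENSMUSG00000035232) chrX:93764607-93832201 on the minus strand. Ldha (ENSMUSG00000063229) spans chr7:46841475-46855627 on the plus strand, and Ddit4 (ENSMUSG00000020108) spans chr10:59949669-59951834 on the minus strand. The start site shown lies within the annotated gene for Slc2a1, Pdk3, Ldha and Ddit4 and just before it for Slc16a1. The Ldha stretch held 5 matches (another RefSeq promoter of Ldha, not shown, held 1). The stretches of Slc16a1 and Pdk3 held 4 each, and those of Slc2a1 and Ddit4 2 each. In Slc16a1 and Ldha the matches included CACGTG, which is also the E-box bound by Myc family factors. RefSeq listed 47 promoters for 33 of the 35 genes, with Slc2a3 and Ndrg1 not listed. At least 1 match lay in 38 of these 47 promoters (80.9%), against 53.6% of 15401 promoters of genes tested and 38.6% of all 32851 promoters. For ACGTG alone the shares were 51.1% of the 47 promoters and 20.7% of the promoters of genes tested, and for GCGTG alone they were 57.4 and 42.7%. Many of these genes were listed because they are textbook HIF targets, so the share describes the list, and a match is not evidence that a factor binds there.

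Per length, the payoff-phase enzymes and aldolase dominated in control libraries. Gapdh, which oxidises glyceraldehyde 3-phosphate, was the most abundant of the 35 transcripts in each control group, with means of 7655 TPM at day 0, 7159 TPM at day 3 and 6207 TPM at day 5. Pkm (pyruvate kinase) averaged 1389, 2239 and 1616 TPM over the same 3 days, Eno1 (enolase) 1299, 2722 and 1379 TPM, and Aldoa (aldolase) 2169, 2137 and 981 TPM. The regulatory genes were far less abundant. Hif1a, an oxygen-regulated HIF subunit, averaged 32.0, 47.3 and 42.4 TPM, and Pfkfb4, which sets the level of the glycolytic activator fructose 2,6-bisphosphate, 2.71, 1.92 and 5.23 TPM.

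In control cells the set peaked at day 3 and then declined. Between day 3 and day 0, 20 of the 35 genes rose and 13 fell by edgeR's quasi-likelihood test (called where the Benjamini-Hochberg adjusted p, taken over all genes tested, was under 0.05), and Eno2 and Ndrg1 were not called. Across all 17795 genes tested 73.5% were called in this comparison (37.2% higher, 36.3% lower), so a call alone says little about these genes. Their median log2 fold change was 0.40, against 0.02 over all genes tested. Between day 5 and day 3, 6 rose, 25 fell and 4 were not called, where 64.8% of all genes were called (31.7% higher, 33.1% lower). The median log2 fold change of the 35 was -0.56, against -0.01 over all genes. Of the 35, 16 rose and then fell (45.7%, against 13.4% of all genes tested). At both steps 7 fell (20%, against 12.8% of all genes) and 3 rose (8.57%, against 13.3%). The day 3 libraries enter both steps, so the 2 directions are not independent. The 16 included 8 glycolytic enzymes (Gpi1, Pfkl, Aldoc, Tpi1, Pgk1, Pgam1, Eno1 and Pkm), Ldha, Slc16a3, Pdk1, Hif1a, Egln3, Bnip3, P4ha2 and Ddit4.

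**Figure D1:**
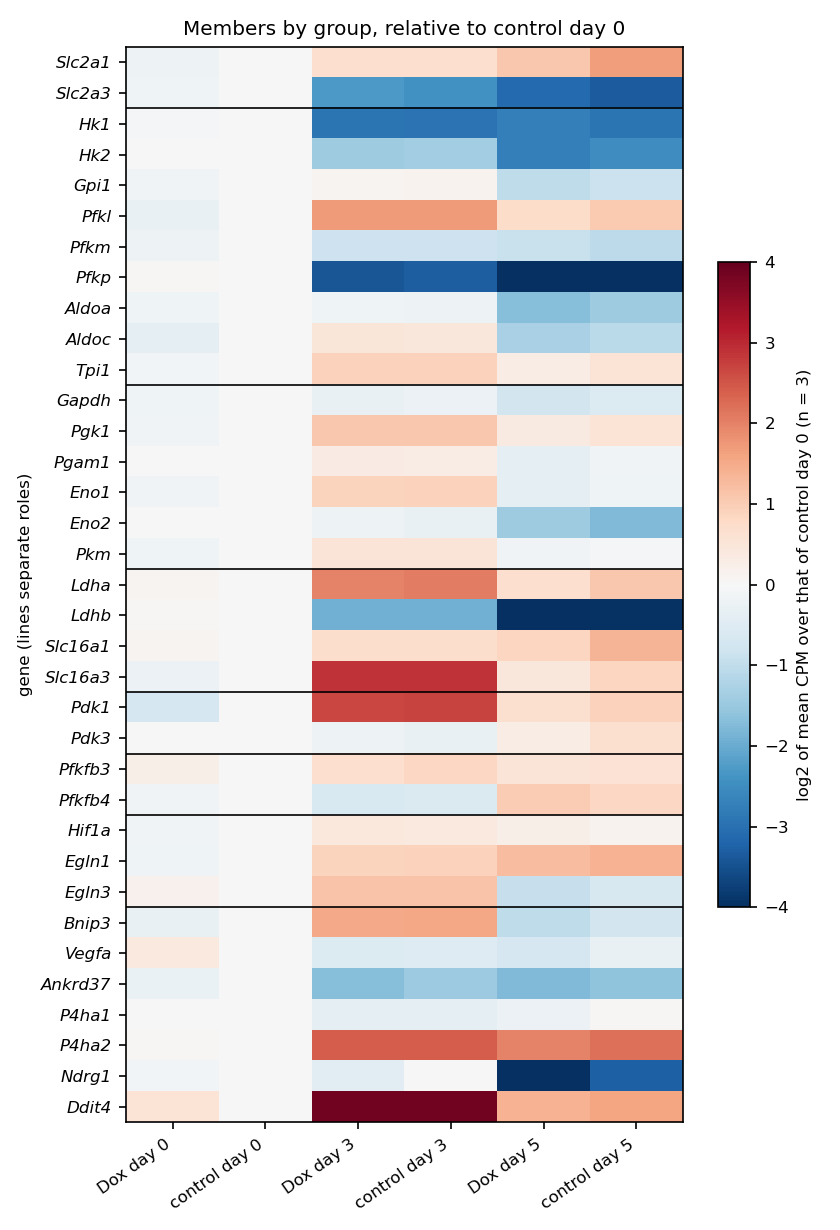
Colour gives the log2 ratio of each gene's mean CPM in a group to its mean in control day 0 (n = 3 libraries per group, colours saturate at 4), with 35 genes in rows ordered by role and 6 groups in columns. Ddit4, Slc16a3, Pdk1 and P4ha2 are highest at day 3, while Pfkp, Hk1 and Slc2a3 are lower from day 3 on, and the Dox and control columns of a day look alike beside these differences.

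The 4 largest rises to day 3 were in genes of the hypoxia response and lactate export. CPM below is the count per gene scaled to library size after TMM correction, given for replicates 1, 2 and 3 in that order. Ddit4, an inhibitor of mTORC1 signalling, had 26.7, 28.5 and 34.8 CPM in control libraries at day 0, 471, 418 and 416 CPM at day 3, and 89.1, 93.7 and 85.6 CPM at day 5. Its log2 fold change was 3.86 (SE 0.097, edgeR adjusted p = 7.15e-17) for day 3 against day 0 and -2.28 (SE 0.089, edgeR adjusted p = 6.72e-14) for day 5 against day 3. Every day 3 library lay above every day 0 and day 5 library. Slc16a3, a lactate exporter of glycolytic tissues, had 30.4, 22.5 and 21.0 CPM at day 0, 185, 189 and 177 CPM at day 3, and 42.6, 50.4 and 41.3 CPM at day 5. Its log2 fold change to day 3 was 2.90 (SE 0.14, edgeR adjusted p = 8.45e-13). Pdk1 had 25.7, 19.7 and 19.7 CPM at day 0, 139, 150 and 135 CPM at day 3, and 43.1, 41.9 and 39.1 CPM at day 5, a log2 fold change to day 3 of 2.71 (SE 0.13, edgeR adjusted p = 9.23e-13). Both were low at day 0, high at day 3 and intermediate at day 5, with no overlap between days. P4ha2, a catalytic subunit of the collagen prolyl hydroxylase, had 2.57, 2.02 and 2.25 CPM at day 0, 11.9, 12.2 and 12.8 CPM at day 3, and 9.72, 11.0 and 10.6 CPM at day 5. P4ha2 rose to day 3 by a log2 fold change of 2.44 (SE 0.11, edgeR adjusted p = 6.02e-13). The call of its fall to day 5 (-0.24) was lost in 9 of the 18 fits that left out a library and under 5 other alternatives. Among these was the replicate number as a block (edgeR adjusted p = 0.0531).

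The 4 largest falls to day 3 were in isoforms that were well expressed in the stem cells. Pfkp, the platelet-type phosphofructokinase, had 353, 350 and 332 CPM in control libraries at day 0, 34.8, 34.6 and 34.8 CPM at day 3, and 5.76, 4.75 and 5.22 CPM at day 5. It fell by 3.31 on the log2 scale to day 3 (SE 0.099, edgeR adjusted p = 8.14e-16) and by a further 2.73 to day 5 (SE 0.11, edgeR adjusted p = 2.04e-13). Hk1, the hexokinase of most adult tissues, had 205, 242 and 201 CPM at day 0, 25.6, 27.0 and 30.5 CPM at day 3, and 29.3, 27.8 and 29.0 CPM at day 5. It fell to day 3 (log2 fold change -2.96, SE 0.092, edgeR adjusted p = 1.34e-15) and was not called between day 5 and day 3, where the libraries overlapped. Slc2a3, a high-affinity glucose transporter, had 1513, 1376 and 1315 CPM at day 0, 298, 247 and 242 CPM at day 3, and 147, 140 and 134 CPM at day 5. Its log2 fold change to day 3 was -2.42 (SE 0.093, edgeR adjusted p = 3.16e-14). Ldhb, the heart-type lactate dehydrogenase subunit, had 433, 513 and 445 CPM at day 0, 114, 127 and 126 CPM at day 3, and 27.4, 32.7 and 30.2 CPM at day 5. Its log2 fold change to day 3 was -1.92 (SE 0.080, edgeR adjusted p = 9.71e-14). Slc2a3 and Ldhb stepped down at each interval without overlap.

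From day 3 to day 5 the largest rises were in the transporters Slc2a1 and Slc16a1 and the regulatory genes Pfkfb4 and Pdk3. Pfkfb4 had 3.69, 3.57 and 3.79 CPM in control libraries at day 3 and 9.22, 9.66 and 10.4 CPM at day 5, a log2 fold change of 1.41 (SE 0.11, edgeR adjusted p = 3.05e-09). Slc2a1, the basal glucose transporter, had 294, 298 and 265 CPM at day 0, 484, 434 and 458 CPM at day 3, and 859, 973 and 919 CPM at day 5, a log2 fold change of 1.00 at the later step (SE 0.088, edgeR adjusted p = 9.99e-09). It is 1 of the 3 genes, with the lactate transporter Slc16a1 and the prolyl hydroxylase Egln1, that rose at both steps. Pdk3 had 38.9, 34.0 and 35.8 CPM at day 0, 30.3, 29.7 and 28.3 CPM at day 3, and 54.1, 56.8 and 58.3 CPM at day 5 (log2 fold change 0.94 to day 5, SE 0.059, edgeR adjusted p = 7.11e-11). Slc16a1 had 83.4, 81.4 and 82.1 CPM at day 0, 141, 133 and 130 CPM at day 3, and 201, 209 and 218 CPM at day 5 (log2 fold change 0.64 to day 5, SE 0.058, edgeR adjusted p = 1.34e-08). The largest falls, beside those of Pfkp and Ddit4, were in Ndrg1 and Bnip3. Ndrg1, a stress-responsive gene, had 19.1, 20.03 and 16.0 CPM at day 0, 15.4, 22.2 and 17.5 CPM at day 3, and 1.69, 2.03 and 1.98 CPM at day 5 (log2 fold change to day 5 of -3.27, SE 0.17, edgeR adjusted p = 4.45e-12). Bnip3, a mitophagy receptor, had 41.5, 34.7 and 36.0 CPM at day 0, 113, 117 and 95.5 CPM at day 3, and 23.5, 24.9 and 19.5 CPM at day 5 (log2 fold change to day 5 of -2.27, SE 0.11, edgeR adjusted p = 1.33e-12). Ndrg1 was thus 9.62-fold lower at day 5 than at day 3 with no overlap, and Bnip3 was highest in the day 3 libraries.

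The other genes followed by role. All 3 HIF regulators (Hif1a, Egln1, Egln3) rose to day 3, and Hif1a and Egln3 fell to day 5. Of the 6 lower glycolysis enzymes 4 rose to day 3 (Pgk1, Pgam1, Eno1 and Pkm, log2 fold changes 0.29 to 1.08), Gapdh fell (-0.24) and Eno2 was not called, and all 6 fell to day 5. Of the 9 upper glycolysis enzymes 4 rose to day 3 (Gpi1, Pfkl, Aldoc and Tpi1) and 5 fell, and 8 fell to day 5. The calls of Gpi1, Aldoa, Gapdh, Pdk3 and Vegfa to day 3, and of Pfkm, Hif1a and P4ha2 to day 5, were lost under at least 1 alternative, and each is a change of at most 0.51 on the log2 scale. With library size alone in place of TMM scaling, the median of all genes moved from 0.02 to 0.17 for day 3 against day 0, and that of the 35 genes from 0.40 to 0.55.

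Within families, the share of each paralogue in the summed TPM showed which isoform prevailed. Slc2a1 made up 23.6% ± 1.36 of the Slc2a1 and Slc2a3 total in control libraries at day 0, 72.6% ± 1.78 at day 3 and 90.8% ± 0.898 at day 5 (SD, n = 3). Pfkp made up 55.3% ± 1.57 of the 3 phosphofructokinases at day 0, 4.92% ± 0.403 at day 3 and 1.08% ± 0.261 at day 5, while Pfkl, the liver-type isoform, made up 23.5% ± 1.03, 82.7% ± 0.918 and 81.9% ± 0.761. Ldha made up 40.5% ± 4.76 of the lactate dehydrogenase pair at day 0, 91.3% ± 0.357 at day 3 and 95.6% ± 0.191 at day 5. These 3 families kept their new isoform to day 5. In others the shift turned back, since Slc16a3 made up 42.5% ± 4.09 of the Slc16a1 and Slc16a3 total at day 0, 77.0% ± 0.523 at day 3 and 33.9% ± 2.36 at day 5. Likewise Pdk1 made up 34.4% ± 2.04 of the Pdk1 and Pdk3 total at day 0, 76.9% ± 1.28 at day 3 and 28.6% ± 3.62 at day 5. Aldoa and Eno1 held at least 98.8% of their families in every library.

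**Figure D2:**
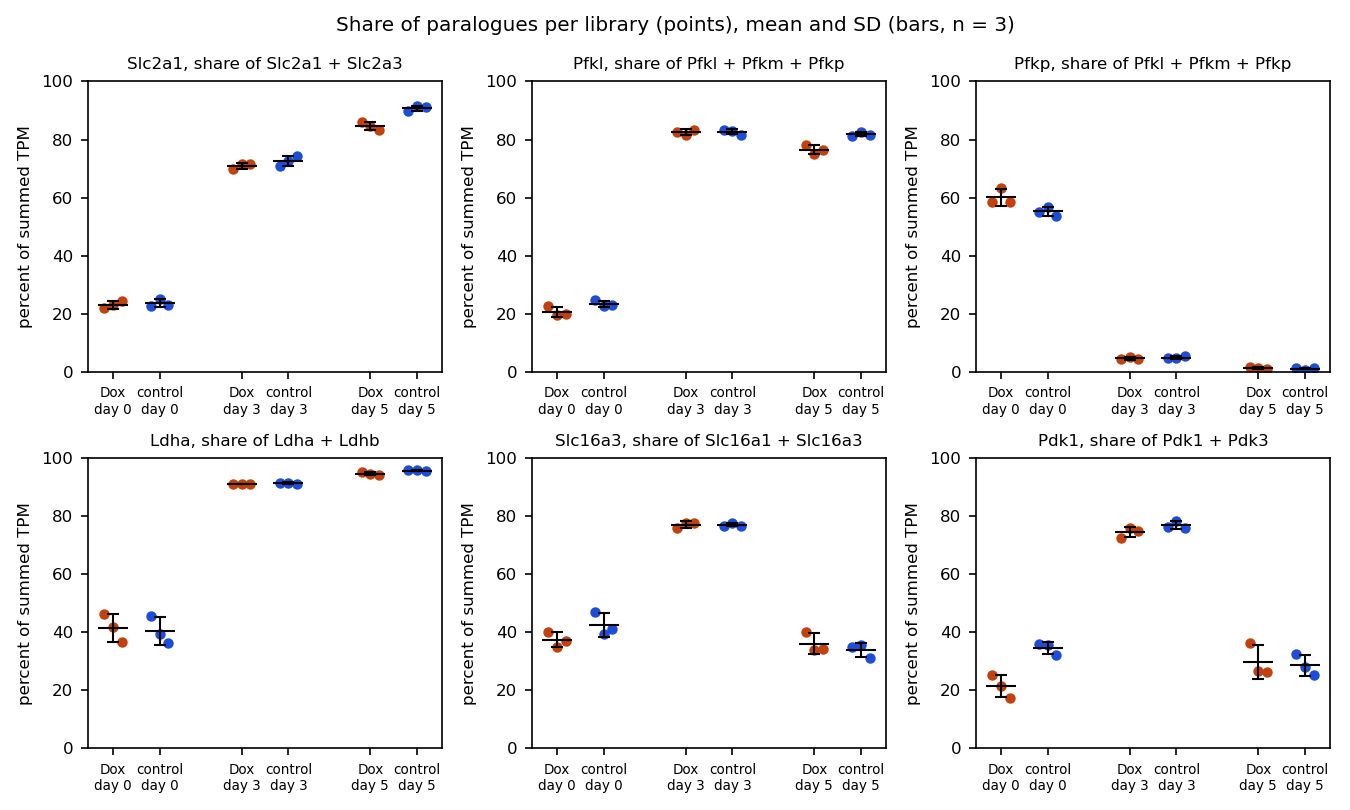
Percent of a family's summed TPM held by 1 paralogue in each library (points, 3 per group) with the mean and SD (bars), Dox left of control at each day. Slc2a1, Pfkl and Ldha gain between day 0 and day 3 and stay high at day 5, Pfkp goes to 4.92% and below, and Slc16a3 and Pdk1 peak at day 3. Dox libraries lie below all control libraries for Slc2a1, Pfkl and Ldha at day 5 and for Pdk1 at day 0 and day 3, and above them for Pfkp at day 0.

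In stem cells at day 0, Dox went with less Pdk1 and more Ddit4, and no other of the 35 genes passed the test. Pdk1 had 17.4, 13.6 and 10.1 CPM in Dox libraries, against 25.7, 19.7 and 19.7 CPM in control libraries, a log2 fold change of -0.67 (SE 0.14, edgeR adjusted p = 0.0271). Ddit4 had 38.2, 49.2 and 44.3 CPM in Dox libraries, against 26.7, 28.5 and 34.8 CPM in control libraries, a log2 fold change of 0.55 (SE 0.093, edgeR adjusted p = 0.00593). For neither gene did the groups overlap. Over all genes 1.04% were called (0.292% higher, 0.747% lower), against 2 of the 35 (5.71%). The median log2 fold change of the 35 was -0.13, against -0.0006 over all genes tested, and 14 had an unadjusted p under 0.05, as did 2197 of all 17795 genes. The Dox libraries lay wholly below the control libraries for 8 genes (Slc2a1, Gpi1, Pfkl, Aldoc, Gapdh, Pdk1, Egln1 and Bnip3) and wholly above for Slc16a1 and Ddit4, where over all genes tested the libraries lay apart for 10.2% (5.64% with Dox below, 4.59% with Dox above). Of these genes, Pfkl was called lower with the replicate number as a block (log2 fold change -0.30, edgeR adjusted p = 0.0384), and otherwise had 124, 99.6 and 106 CPM in Dox against 141, 138 and 127 CPM in control libraries with an edgeR adjusted p of 0.0808. The call of Pdk1 was lost without control replicate 1 (edgeR adjusted p = 0.118) and without Dox replicate 2 (0.0912), the library with the high rRNA share, and both calls were lost with day 0 fitted alone (0.774 for Pdk1, 0.559 for Ddit4). The Pdk1 share of the pair was 21.4% ± 3.88 in Dox and 34.4% ± 2.04 in control libraries (SD, n = 3 each; exact permutation test, two-sided, p = 0.1, the smallest that 3 against 3 allows, and 0.485 adjusted over 63 such comparisons).

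At day 3 none of the 35 genes was called, and nearly none of the transcriptome was. By edgeR 0.0169% of all genes passed (3 higher, 0 lower), 432 genes had an unadjusted p under 0.05, and 1 of the 35 did. DESeq2 and limma-voom likewise called 0 of the 35. The median log2 fold change of the 35 was -0.01, against 0.00 over all genes tested. The 2 genes with the smallest unadjusted p were Ndrg1 and Pdk3. Ndrg1 had 11.7, 15.4 and 13.1 CPM in Dox libraries, against 15.4, 22.2 and 17.5 CPM in control libraries (log2 fold change -0.46, SE 0.14, edgeR adjusted p = 1.0), with overlapping groups. Pdk3 had 32.3, 30.4 and 32.3 CPM in Dox libraries, against 30.3, 29.7 and 28.3 CPM in control libraries (log2 fold change 0.11, SE 0.060, edgeR adjusted p = 1.0). With day 3 fitted alone and the replicate number as a block Ndrg1 was called lower (edgeR adjusted p = 0.00136), the 1 call among the 35 at day 3 under any alternative run. The 4 primitive streak markers summed to 520 to 618 TPM in Dox and 679 to 893 TPM in control libraries at this day. Most of this sum is T, with 379 to 466 TPM in Dox and 529 to 685 TPM in control libraries. Fgf8 was also lower in every Dox library, while Mixl1 and Eomes overlapped. None of these markers was called.

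At day 5, 9 of the 35 genes were lower with Dox and 0 were higher, where 4.74% of all genes were called (2.39% higher, 2.34% lower) and the 9 are 25.7% of the 35. The median log2 fold change of the 35 was -0.21, against 0.00 over all genes tested, and 24 had an unadjusted p under 0.05, as did 2916 of all 17795 genes. The 9 were spread over the pathway. They held 1 of 2 glucose transporters, 3 of 9 upper and 2 of 6 lower glycolysis enzymes, 2 of 4 lactate genes and 1 of 2 pyruvate dehydrogenase kinases, and 0 of the 3 HIF regulators, 0 of the 2 Pfkfb genes and 0 of the 7 other HIF targets. For 22 genes every Dox library lay below every control library, for 3 (Slc2a3, Pfkm and Pfkfb4) above, and for 10 the groups overlapped. Over all genes tested the libraries lay apart in this way for 26.1% (12.3% with Dox below, 13.8% with Dox above). With the replicate number as a block 14 were called, which added P4ha1, Slc16a3, Egln1 and Ndrg1 as lower and Slc2a3 as higher (edgeR adjusted p of 0.0114 to 0.0488). The share of all genes called with the block is not given here, so the 14 are not read as a stronger response of these genes.

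**Figure D3:**
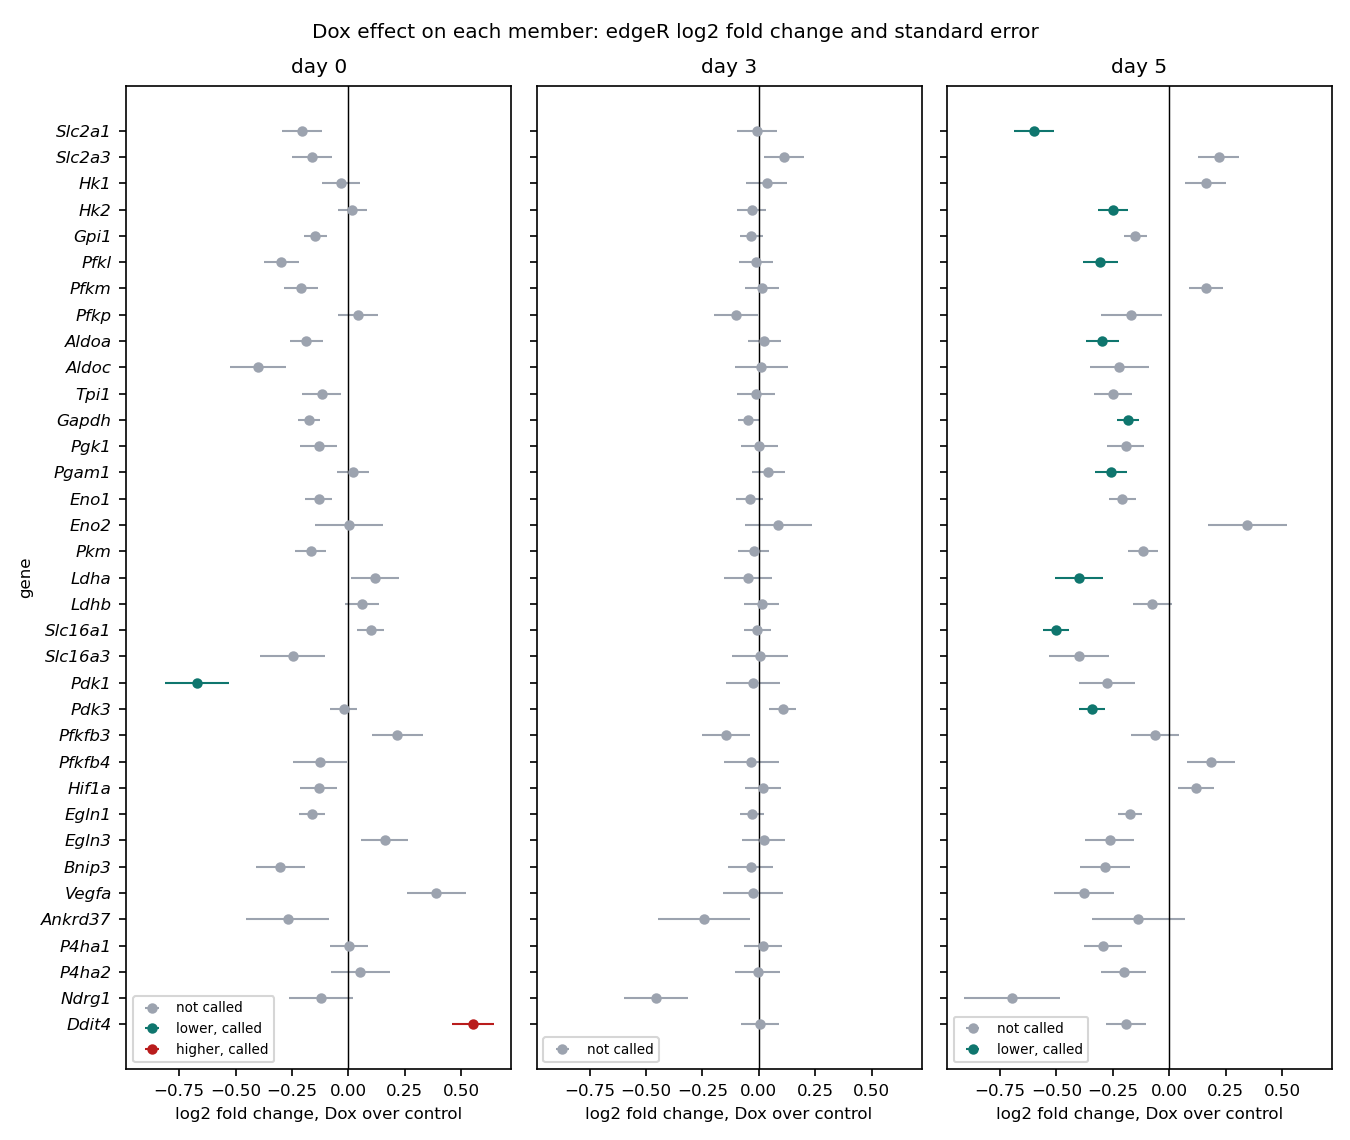
Log2 fold change of Dox over control from edgeR (points) with its standard error (bars) for the 35 genes at day 0, day 3 and day 5, coloured by call at an adjusted p under 0.05. Only Pdk1 (lower) and Ddit4 (higher) are called at day 0, none at day 3, and 9 are called lower at day 5, where most of the uncalled points also lie left of 0.

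The calls at day 5 that held most widely were those of the transporters Slc2a1 and Slc16a1 and of Pdk3. Slc2a1 had 720, 566 and 529 CPM in Dox libraries, against 859, 973 and 919 CPM in control libraries, a log2 fold change of -0.60 (SE 0.088, edgeR adjusted p = 0.000362). Slc16a1 had 163, 143 and 138 CPM in Dox libraries, against 201, 209 and 218 CPM in control libraries, a log2 fold change of -0.50 (SE 0.058, edgeR adjusted p = 3.79e-05). Pdk3 had 44.4, 44.6 and 44.5 CPM in Dox libraries, against 54.1, 56.8 and 58.3 CPM in control libraries, a log2 fold change of -0.34 (SE 0.058, edgeR adjusted p = 0.00133). The groups of all 3 were separate, and among Dox libraries replicate 1 was the highest for both transporters. Their calls held under every alternative run except a fold threshold of 1 on the log2 scale, which none of the 35 reached at day 5. The day 5 control libraries enter both this comparison and that of day 5 with day 3, in which all 3 genes were called higher.

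Each of the other 6 calls at day 5 was lost in 3 to 11 of the 18 fits that left out a library. Ldha had 689, 604 and 606 CPM in Dox libraries, against 776, 928 and 802 CPM in control libraries (log2 fold change -0.40, SE 0.11, edgeR adjusted p = 0.0321). Pfkl had 253, 216 and 208 CPM in Dox libraries, against 269, 301 and 267 CPM in control libraries (log2 fold change -0.31, SE 0.077, edgeR adjusted p = 0.0260). Aldoa had 748, 680 and 641 CPM in Dox libraries, against 798, 931 and 810 CPM in control libraries (log2 fold change -0.30, SE 0.073, edgeR adjusted p = 0.0233). In these 3 genes the groups did not overlap, and the gap between the lowest control and the highest Dox library was narrower than the range of the control libraries. Pgam1, phosphoglycerate mutase, had 649, 600 and 603 CPM in Dox libraries, against 711, 779 and 726 CPM in control libraries (log2 fold change -0.26, SE 0.072, edgeR adjusted p = 0.0447). Hk2, the inducible hexokinase, had 73.5, 62.1 and 60.4 CPM in Dox libraries, against 73.2, 79.0 and 80.5 CPM in control libraries (log2 fold change -0.25, SE 0.066, edgeR adjusted p = 0.0346). Gapdh had 4327, 4295 and 4186 CPM in Dox libraries, against 4629, 5098 and 4820 CPM in control libraries (log2 fold change -0.18, SE 0.048, edgeR adjusted p = 0.0303). Hk2 is the 1 called gene whose groups overlapped, since Dox replicate 1 lay at the level of control replicate 1. Leaving out control replicate 2, Dox replicate 2 or Dox replicate 3 left 3 of the 35 genes called, leaving out control replicate 3 left 4, and without Dox replicate 1 there were 11. Ldha, Gapdh and Pgam1 had non-whole estimated counts in all 18 libraries, so some reads shared with other genes were divided by the authors' estimation. How many were shared is not known. Pseudogenes named after them held counts equal to 0.114% of those of Ldha, 0.0036% of Gapdh and 1.73% of Pgam1. In this respect their levels are less certain than those of Slc2a1, Slc16a1 and Pdk3.

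**Figure D4:**
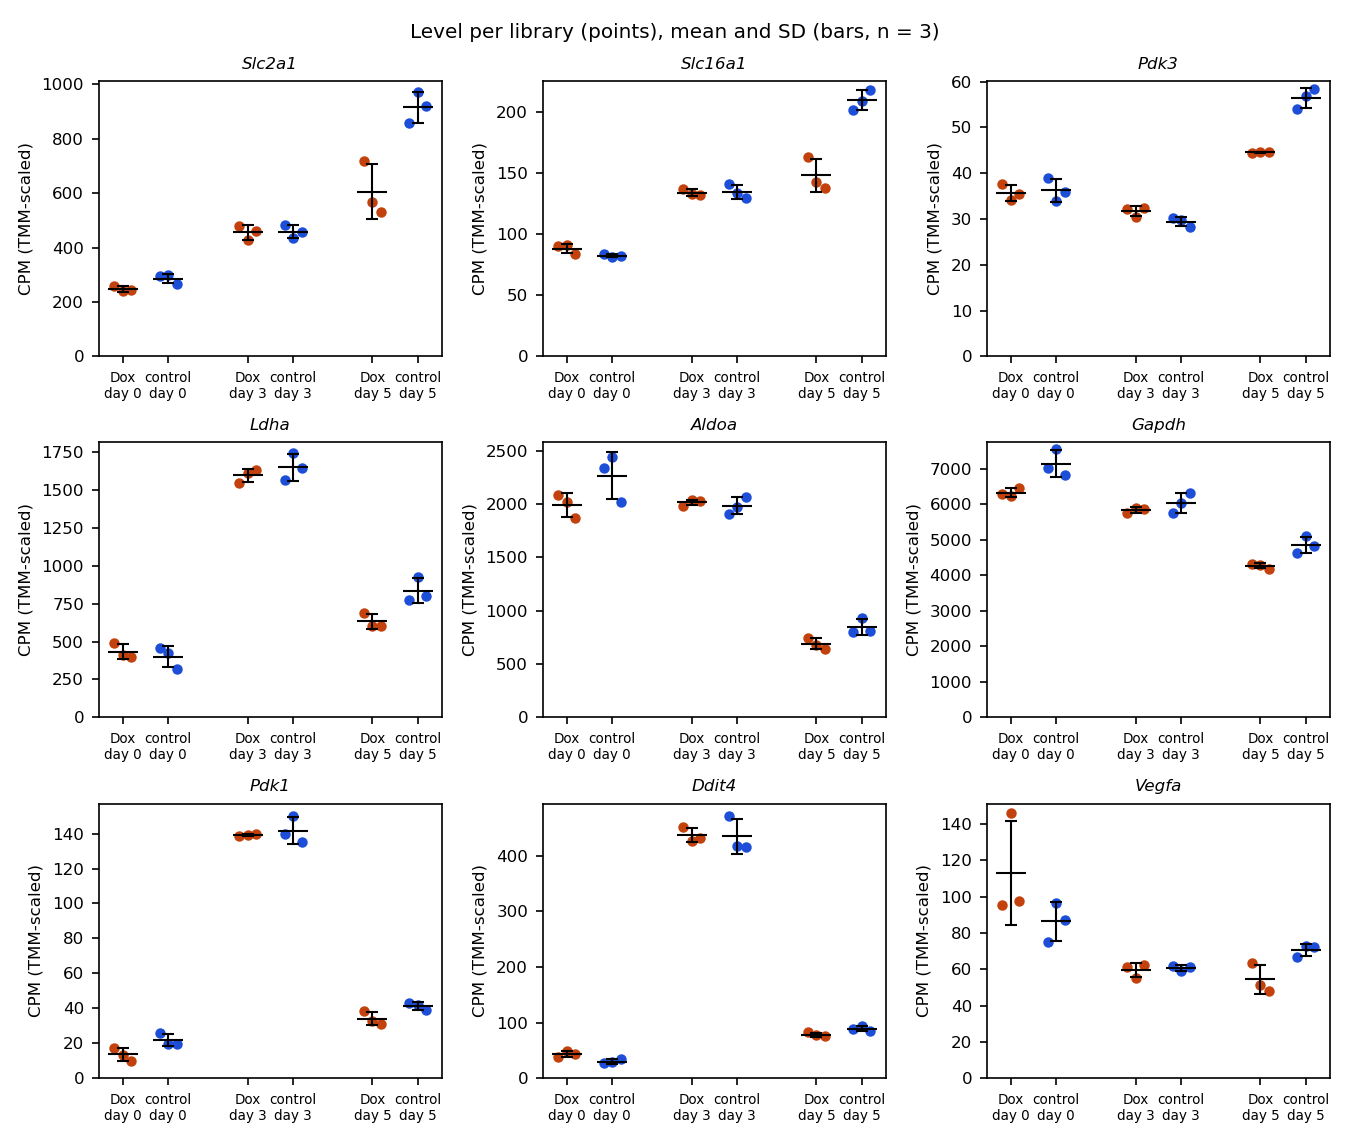
CPM in each library (points, 3 per group) with the mean and SD (bars) for 9 genes, Dox left of control at each day. Dox libraries lie below control libraries at day 5 for Slc2a1, Slc16a1, Pdk3, Ldha, Aldoa, Gapdh, Pdk1, Ddit4 and Vegfa, while at day 0 Ddit4 lies above and Pdk1 below.

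Several HIF targets pointed the same way at day 5 without passing the test. Ndrg1 had 1.19, 1.04 and 1.299 CPM in Dox libraries, against 1.69, 2.03 and 1.98 CPM in control libraries (log2 fold change -0.70, SE 0.21, edgeR adjusted p = 0.0717). P4ha1 had 41.6, 39.0 and 35.5 CPM in Dox libraries, against 45.0, 50.1 and 47.2 CPM in control libraries (log2 fold change -0.29, SE 0.083, edgeR adjusted p = 0.0506). Vegfa, the endothelial growth factor, had 63.5, 51.6 and 48.2 CPM in Dox libraries, against 66.9, 73.0 and 72.2 CPM in control libraries (log2 fold change -0.38, SE 0.13, edgeR adjusted p = 0.132). The groups did not overlap in these 3 genes, and they were picked from the plot of Dox effects after their values were seen. Hif1a itself had 136, 129 and 135 CPM in Dox libraries, against 130, 111 and 128 CPM in control libraries (log2 fold change 0.12, SE 0.081, edgeR adjusted p = 0.545).

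The isoform balance at day 5 differed by a few percentage points in some families, though no share comparison passed adjustment. Dox and control shares overlapped for the aldolases, enolases, lactate transporters, pyruvate dehydrogenase kinases, Pfkfb genes and P4ha genes. Slc2a1 made up 84.8% ± 1.45 of the glucose transporter pair in Dox and 90.8% ± 0.898 in control libraries, and Pfkl 76.5% ± 1.62 of the phosphofructokinases in Dox and 81.9% ± 0.761 in control libraries (SD, n = 3 each). Hk1 made up 37.3% ± 3.15 of the hexokinase pair in Dox and 30.3% ± 2.08 in control libraries. In all 3 the groups did not overlap, and the exact two-sided permutation p was 0.1, the smallest possible, and 0.485 after adjustment. The 35 genes together took 1.64 to 1.81% of counts in Dox and 1.79 to 1.95% in control libraries at day 0, 2.33 to 2.36% in Dox and 2.34 to 2.44% in control libraries at day 3, and 1.35 to 1.47% in Dox and 1.55 to 1.69% in control libraries at day 5. These ranges were separate at day 5 and overlapped on the other days. The summed TPM of the 35 was separate on all 3 days, with 14387 to 15883 TPM in Dox and 16001 to 17267 TPM in control libraries at day 0, 20166 to 20380 TPM in Dox and 20675 to 21331 TPM in control libraries at day 3, and 12438 to 13691 TPM in Dox and 14507 to 15155 TPM in control libraries at day 5. The exact two-sided permutation p for this sum was 0.1 on each day. Gapdh is the largest part of the sum, and at day 3 it averaged 6827 TPM in Dox and 7159 TPM in control libraries. A lower sum thus need not mean lower levels across the 35 genes.

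Tissue markers also differed between the day 5 groups. The 3 neural markers summed to 397 to 410 TPM in Dox and 464 to 474 TPM in control libraries. The 3 genes of the somite list summed to 51.7 to 69.9 TPM in Dox and 75.5 to 88.8 TPM in control libraries. For the 4 primitive streak markers the sums were 4.95 to 6.25 TPM in Dox and 7.52 to 9.24 TPM in control libraries. The members of a list did not all go one way, since the neural marker Sox1 had 89.2 to 93.4 TPM in Dox and 74.7 to 77.8 TPM in control libraries, while Pax6 and Irx3 were lower in every Dox library than in any control library. Tbx6, a presomitic gene placed in the somite list, had 0.39 to 0.63 TPM in Dox and 0.35 to 0.41 TPM in control libraries. These levels are near 0 and overlap. Mitochondrially encoded genes took 3.05 to 3.09% of counts in Dox and 2.72 to 2.87% in control libraries. No neural, somite or streak marker was at 0 in a whole group, and the feeder fibroblast and erythroid lists stayed at or under 2.21 TPM. The part of these differences in the lower glycolytic levels was not tested, and in bulk RNA fewer cells of a type and less RNA per cell cannot be told apart.

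The Dox effect differed between days for 5 of the 35 genes by a test of the difference itself (Slc2a1, Slc16a1, Pdk3, Vegfa and Ddit4). Between day 5 and day 3, 3 of the 35 had a lower Dox effect at day 5 and 0 a higher one, where 0.82% of all genes were called (0.354% higher, 0.466% lower). They were Slc16a1 (-0.49 on the log2 scale, SE 0.082, edgeR adjusted p = 0.00493), Slc2a1 (-0.59, SE 0.12, edgeR adjusted p = 0.0293) and Pdk3 (-0.45, SE 0.083, edgeR adjusted p = 0.0135). At day 3 Slc2a1 had 481, 427 and 460 CPM in Dox libraries, against 484, 434 and 458 CPM in control libraries, and Slc16a1 had 137, 132 and 132 CPM in Dox libraries, against 141, 133 and 130 CPM in control libraries. The day 3 groups overlapped in both transporters. The call of Slc2a1 was lost in 9 and that of Pdk3 in 3 of the fits that left out a library, and leaving out day 3 Dox replicate 3, day 5 control replicate 3 or day 5 Dox replicate 3 left 1 of the 3 called.

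Between day 5 and day 0, 4 of the 35 had a lower Dox effect at day 5 and 0 a higher one, where 3.28% of all genes were called (1.76% higher, 1.52% lower). Slc16a1 differed by -0.60 on the log2 scale (SE 0.083, edgeR adjusted p = 0.000542). It had 89.9, 90.6 and 83.6 CPM in Dox libraries at day 0, against 83.4, 81.4 and 82.1 CPM in control libraries, so its Dox libraries lay above control at day 0 and below at day 5. Ddit4 differed by -0.74 (SE 0.13, edgeR adjusted p = 0.00295), with 82.7, 77.1 and 75.2 CPM in Dox libraries at day 5, against 89.1, 93.7 and 85.6 CPM in control libraries. Vegfa differed by -0.77 (SE 0.19, edgeR adjusted p = 0.0299), with 95.5, 146 and 97.8 CPM in Dox libraries at day 0, against 75.1, 96.8 and 87.3 CPM in control libraries, where replicate 2 was the highest in both groups and the groups overlapped. Pdk3 differed by -0.32 (SE 0.083, edgeR adjusted p = 0.0408), with 37.6, 34.1 and 35.5 CPM in Dox libraries at day 0, against 38.9, 34.0 and 35.8 CPM in control libraries. With the replicate number as a block 7 were called, adding Slc2a1 (-0.40, edgeR adjusted p = 0.0495) and Ldha (-0.52, 0.0339) as lower and Slc2a3 (0.38, 0.00361) as higher. The share of all genes called with the block is not given here, so the 7 are not read as a stronger response. The call of Pdk3 was lost in 13 of the 18 fits that left out a library, with no filter (edgeR adjusted p = 0.143), with library size alone (0.0947) and with limma on log2(TPM + 1) (0.297), and that of Vegfa was lost in 5 of the 18. The count was 2 without day 5 control replicate 2, day 5 control replicate 3, day 5 Dox replicate 2 or day 5 Dox replicate 3, and 7 without day 0 Dox replicate 3. Between day 3 and day 0, 0 of the 35 differed by edgeR and 8 had an unadjusted p under 0.05, as did 1433 of all 17795 genes, where 0.0562% of all genes were called (0.0393% higher, 0.0169% lower). DESeq2 called 1 and limma-voom 0.

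Among other genes of these pathways, Dox calls numbered at most 1 per list and direction on each day. Over all genes tested 1.04% were called at day 0 and 4.74% at day 5. The lists are short, so these low counts do not mean a share below that over all genes. Of 24 tested genes among 27 other glycolysis genes, 1 was lower at day 0, Pdp2, a phosphatase that activates pyruvate dehydrogenase, with 63.5 ± 6.67 CPM in Dox and 84.7 ± 2.53 CPM in control libraries (SD, n = 3 each; log2 fold change -0.42, edgeR adjusted p = 0.00551). At day 5 Hkdc1, a hexokinase-like gene, was lower with 0.699 ± 0.219 CPM in Dox and 1.92 ± 0.221 CPM in control libraries (log2 fold change -1.46, edgeR adjusted p = 0.0375). Bpgm, which makes 2,3-bisphosphoglycerate, was higher with 41.7 ± 1.73 CPM in Dox and 35.9 ± 1.32 CPM in control libraries (log2 fold change 0.22, edgeR adjusted p = 0.0373). Of 29 tested genes among 31 other HIF pathway genes, Car12, a carbonic anhydrase, was higher at day 0 with 1.77 ± 0.425 CPM in Dox and 0.663 ± 0.378 CPM in control libraries (log2 fold change 1.43, edgeR adjusted p = 0.0423). At day 5 Cited2, which competes with HIF for its coactivator, was higher with 64.7 ± 5.04 CPM in Dox and 47.3 ± 0.570 CPM in control libraries (log2 fold change 0.45, edgeR adjusted p = 0.00453), and the mitochondrial gene Higd1a was lower with 49.8 ± 1.385 CPM in Dox and 58.6 ± 3.93 CPM in control libraries (log2 fold change -0.23, edgeR adjusted p = 0.0314). All 7 pentose phosphate genes were tested and 0 were called in any Dox comparison by edgeR, with 1 at an unadjusted p under 0.05 at day 0 and 1 at day 5. Of 5 tested genes among 7 gluconeogenesis genes, Pck2, the mitochondrial phosphoenolpyruvate carboxykinase, was higher at day 0 with 112 ± 33.9 CPM in Dox and 64.6 ± 9.49 CPM in control libraries (log2 fold change 0.80, edgeR adjusted p = 0.0105).

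In the control course most genes of these lists were called, as were most genes tested. To day 3, 6 of the 24 other glycolysis genes rose and 12 fell, 16 of the 29 other HIF pathway genes rose and 10 fell, 3 of 7 pentose phosphate genes rose and 3 fell, and 3 of 5 gluconeogenesis genes rose and 2 fell. From day 3 to day 5 the same lists had 8 rises and 12 falls, 10 and 13, 2 and 5, and 1 and 4. Epas1, another oxygen-regulated HIF subunit, averaged 39.4 CPM at day 0, 1.43 CPM at day 3 and 0.911 CPM at day 5 in control libraries, while Arnt2, a HIF partner, averaged 4.24, 37.4 and 97.9 CPM. Ak4, an adenylate kinase, averaged 546, 61.1 and 76.7 CPM. Bhlhe40, a transcriptional repressor, averaged 31.8, 59.2 and 1.94 CPM, and Hif3a, a HIF subunit gene, 9.45, 34.9 and 5.32 CPM. Among pentose phosphate genes Taldo1 (transaldolase) averaged 284, 144 and 105 CPM, Pgls 49.3, 85.1 and 105 CPM, Rpe 66.4, 40.9 and 34.98 CPM, Rpia 11.1, 9.45 and 19.5 CPM, and G6pdx, the entry enzyme, 70.2, 107 and 66.0 CPM. Fbp2 averaged 6.55 CPM at day 0 and was near 0 from day 3 on, Fbp1 averaged 1.84 CPM at day 3 and was near 0 at day 5, and G6pc3 averaged 6.48, 17.4 and 24.2 CPM. Slc16a7, Pdk4, Hkdc1, Ldhc and Adm, which also had large changes within their lists, averaged at most 5.28 CPM in every control group.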

How the data were processed

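The authors deposited RSEM gene tables, 1 per library, with expected counts (RSEM's estimate of the reads from each gene), TPM (scaled by the authors for gene length and depth) and FPKM, which was not used. Per the submitters' processing notes, Trimmomatic, STAR 2.7.10a, RSEM 1.3.3, DESeq2 1.38.2 and genome build GRCm38 were used. Roles, strand setting and annotation release are not given in the sources used here. Per the labels' protocols the libraries are stranded.

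Between 6.54 and 7.49% of the expected counts of a table were not whole, and all were rounded. GENCODE symbols matched 55141 of 55401 gene IDs. A further ID carries the symbol Aldoa (mean 54.8 counts, against 50267 for the ID used). The quasi-likelihood F test of edgeR 4.0.16 was run in R 4.3.3 on counts scaled by TMM (factors 0.894 to 1.063), for the 17795 genes that passed filterByExpr (minimum count 10, total 15). All 18 libraries entered with 6 group means, 12 residual degrees of freedom and a biological coefficient of variation of 0.09. Adjusted p is Benjamini-Hochberg over all genes tested, called under 0.05, and p-values measure only the spread between these libraries, which may be technical. Share comparisons used exact two-sided permutation tests (scipy 1.17.1).

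The labels tag each library with a batch that matches its replicate number. Dox and control libraries of equal number were therefore taken as pairs for the correlations below and in the alternatives with a block. The labels do not state such a pairing. After removal of group means, pairs correlated across genes with r of 0.206 to 0.331 (day 0), 0.01 to 0.036 (day 3) and 0.022 to 0.051 (day 5), and libraries of unequal number with r of -0.252 to 0.055, -0.043 to 0.02 and -0.057 to 0.02 on those days. The main fit has no block, so its p-values take no account of these correlations. Alternatives were a block for the replicate number, DESeq2 1.42.0, limma-voom (limma 3.58.1), limma on log2(TPM + 1), scaling by RLE or by library size alone, testing unfiltered genes or those with 1 CPM or more in 3 libraries, fitting days separately with or without the block, requiring an absolute log2 fold change of 1 or more, and leaving out each library.

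The genes, lists and tests were chosen with earlier results of these data known. Named with values per library were all genes called in a Dox comparison or a difference between days and, in each control comparison, the 4 largest rises and falls. Where none was called, the 2 with the smallest unadjusted p are given, and of other lists up to 3 called genes each. A gene that this rule selects is not reported here. Vegfa, P4ha1, Ndrg1 and Hif1a at day 5 and the abundance examples were chosen after their values were seen.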

Additional observations from a re-analysis of the deposited data

Results flagged for a closer look

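For 4 of the 35 genes and for 6 further genes of the same pathways, of which at most 3 per list are named below, the Dox effect at day 5 differed from that at day 0, and for 3 of the 35 it differed from that at day 3, each by an edgeR test of the difference itself. Over all genes tested 3.28% were called for day 5 minus day 0 and 0.82% for day 5 minus day 3. On the log2 scale the effect at day 5 minus that at day 3 was -0.59 for Slc2a1, -0.49 for Slc16a1 and -0.45 for Pdk3. The effect at day 5 minus that at day 0 was -0.60 for Slc16a1, -0.32 for Pdk3, -0.77 for Vegfa and -0.74 for Ddit4. The Dox over control fold changes behind them (day 0, day 3, day 5, log2) were 0.10, -0.01 and -0.50 for Slc16a1, -0.02, 0.11 and -0.34 for Pdk3, 0.39, -0.03 and -0.38 for Vegfa, and 0.55, 0.00 and -0.19 for Ddit4.

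Outside the 35, the difference between day 5 and day 0 was -1.41 for Stc2, a secreted stress-induced glycoprotein, with 11.4 ± 6.31 CPM in Dox and 5.46 ± 1.27 CPM in control libraries at day 0 and 10.9 ± 2.05 CPM in Dox and 13.96 ± 1.09 CPM in control libraries at day 5 (SD, n = 3 each). It was -1.14 for Pck2, -0.46 for the mitochondrial gene Fam162a, 0.50 for Cited2 and 0.56 for Pdp2. These are differences of log2 fold changes, and each day's libraries enter 1 side of the difference.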

How the results depend on the processing

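Of the 35 genes, these numbers were called under other settings. The numbers called over all genes under each setting are not given here. A higher count among the 35 is therefore not read as a stronger response of these genes. With no filter on low counts there were 6 calls for Dox at day 0, 19 at day 5, 2 for the difference between day 3 and day 0, 7 for day 5 and day 3, and 8 for day 5 and day 0, against 2, 9, 0, 3 and 4. DESeq2 gave 4 at day 0, 1 for day 3 and day 0, and 7 for day 5 and day 0. At day 5 limma on log2(TPM + 1) called 5 of the 35 and lost Hk2, Pfkl, Pgam1 and Ldha (limma adjusted p of 0.0625 to 0.151), scaling by library size alone called 7, RLE 8, limma-voom 12 and DESeq2 13. With each day fitted alone there were 0 calls at day 0 and 17 at day 5. When the absolute log2 fold change also had to reach 1 there were 0 for Dox at day 0 and day 5 and for the differences day 5 and day 3 and day 5 and day 0, and in control cells 15 for day 3 against day 0 and 14 for day 5 against day 3 (33 and 31 without it). The causes were not tested. The replicate block gave 14 calls at day 5 and 7 for day 5 and day 0, and each day fitted alone with the block gave 1 at day 3 and 24 at day 5. Beside these, the block in the fit of all libraries changed the calls of Pfkl (day 0), Pfkfb3 and P4ha2 (control, day 5 against day 3) and no other call. Leaving out 1 library gave 1 to 4 calls at day 0, 0 at day 3, 3 to 12 at day 5, 32 to 33 and 29 to 32 for the control steps, 0 to 2 for day 3 and day 0, 1 to 3 for day 5 and day 3, and 2 to 7 for day 5 and day 0. At day 0 the count was 1 without control replicate 1 or Dox replicate 2 and 4 without control replicate 3 or Dox replicate 3. No call changed direction under any of these settings. Genes under about 1 CPM, such as Car12 and Hkdc1, rest on few reads.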
